A study of Mus musculus with 16 samples.

Results

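DNA methylation was compared between B cells and T cells at the promoter and along the body of each protein-coding gene on mouse chromosomes 1 to 19. The members were all 16 whole-genome bisulphite libraries of the series, 8 labelled B cells and 8 labelled T cells, pooled over sex and bisulphite chemistry. A promoter was the window from 500 bp before to 500 bp after the transcription start site (TSS) of a gene, and a gene body ran from 2 kb after the TSS to the end of the gene. The annotation held 20807 such genes on mm10, and regions were kept when they had at least 3 CpGs and at least 20 methylation calls in at least 5 libraries of each cell type. This kept 19074 promoters, with a median of 47 CpGs and 404.5 calls per library, and 18923 gene bodies, with a median of 202 CpGs and 1592.5 calls. The level of a region in a library was the percentage of its pooled calls that were methylated.

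The labels give CD43- for the B cells and CD4+CD62L+ for the T cells, and both were sorted magnetically from spleens of C57BL/6J mice aged 6 to 8 weeks. Each cell type had 4 libraries from males and 4 from females. Within each sex, 2 libraries had been treated with bisulphite alone (BS), which leaves 5-methylcytosine and 5-hydroxymethylcytosine to be read alike as methylated, and 2 had been oxidised first (oxBS), after which 5-hydroxymethylcytosine is read as unmethylated. The design text calls the material pooled, no label names a mouse, and a protocol in which part of a sample was oxidised does not settle if some BS and oxBS libraries came from the same DNA. The p-values therefore measure the spread between these libraries, part of which may be technical. At 19.1% of promoters and 15.4% of gene bodies this spread was under that of binomial sampling of calls. The model p-values there rest on such sampling.

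In mammals most CpGs carry methyl groups, apart from CpG-rich promoters, which stay largely free of them in nearly every cell. Promoters with few CpGs differ more between cell types, and at many lineage genes a methylated promoter goes with a silent gene. Methylation along the body of an active gene is common. TET enzymes oxidise 5-methylcytosine to 5-hydroxymethylcytosine on the way to its loss. B and T cells come from a shared lymphoid progenitor and assemble their antigen receptor genes by deleting the DNA between the joined segments.

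That deletion gave a check of the labels that uses depth and no methylation value. Over the span of the immunoglobulin heavy chain D segments (chr12:113430528-113528054), calls per CpG were 15.5 to 18.7% of the median gene body of the same library in the 8 B cell libraries (median 16.6%) and 84.1 to 90.9% in the 8 T cell libraries (median 86.0%). Over Trdc, the T cell receptor delta constant gene that is lost when the alpha chain is joined (chr14:54142851-54148868), they were 85.9 to 101% in B cells and 18.7 to 35.8% in T cells. No library overlapped the other cell type at either locus. The libraries held between 123693203 and 171130063 calls, and between 78.4 and 81.5% of the autosomal calls were methylated. Pairs of libraries of the same cell type, sex and assay had a mean chi-square per gene body of 2.04 to 3.90, where 1 is expected from independent calls alone. Calls from 1 read need not be independent, so this value does not settle if libraries share DNA. B cell libraries fell into 2 sets, 1, 2, 9 and 10 against 3, 4, 11 and 12, each holding a BS and an oxBS library of each sex. Pairs within a set differed by 2.11 to 3.40 and pairs across the sets by 3.09 to 4.25, so that the ranges overlapped in part. Pairs of different sex were as close as pairs of the same sex, for example 2.18 for libraries 10 and 2 and 2.11 for 10 and 9. T cell libraries grouped by assay instead, with 10.9 to 12.01 between assays. At some named regions the first and the second set did not overlap, with 35.0 to 39.3% and 10.7 to 22.3% at the Ly86 promoter, 26.1 to 46.3% and 7.32 to 16.5% at the Spib promoter and 42.6 to 47.6% and 26.6 to 32.3% at the Actb body, while both sets lay on the same side of the T cell libraries at each. The sets were read from gene body calls of these same libraries. These regions and the Cd79b body below were picked because the sets stood apart there, so they are examples only. How many named regions separate in this or any other split of the libraries was not counted. No label names these sets, their source was not tested, and no test was run between them. Fits within 1 assay, 4 against 4 libraries, set no BS library beside an oxBS library. They called 105 promoters in BS, 102 of which were among the 268 called with all libraries, and 131 in oxBS, 124 of which were. These fits used part of the same libraries and the same limit, so that a large overlap was likely in advance. They do not settle if the libraries within 1 assay are independent.

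Sequences are shown around the TSS of Cd3d and Cd3e, which had the largest differences of promoters higher in B cells. Fcrla, which followed Ms4a1 among promoters higher in T cells, is shown beside them. The sequences were chosen on the size of these differences, and their CpGs are part of the same calls. Each is read 5′ to 3′ on the strand of the gene from the mm10 reference, runs from 200 bases before to 99 bases after the TSS, and has its CpGs in capitals. Cd3d lies on the plus strand (chr9:44981586-44981885), and Cd3e (chr9:45009528-45009827) and Fcrla (chr1:170927484-170927783) lie on the minus strand.
Cd3d: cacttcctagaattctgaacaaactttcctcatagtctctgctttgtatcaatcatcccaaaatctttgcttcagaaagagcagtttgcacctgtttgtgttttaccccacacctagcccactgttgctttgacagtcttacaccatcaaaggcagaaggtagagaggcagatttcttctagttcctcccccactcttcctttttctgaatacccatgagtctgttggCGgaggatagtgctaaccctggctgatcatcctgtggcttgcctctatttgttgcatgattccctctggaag
Cd3e: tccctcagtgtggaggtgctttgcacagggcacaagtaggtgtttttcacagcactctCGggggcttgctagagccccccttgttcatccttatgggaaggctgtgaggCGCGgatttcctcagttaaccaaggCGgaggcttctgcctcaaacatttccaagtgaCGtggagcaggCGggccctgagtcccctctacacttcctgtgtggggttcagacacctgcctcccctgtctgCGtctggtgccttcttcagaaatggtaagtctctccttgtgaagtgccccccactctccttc
Fcrla: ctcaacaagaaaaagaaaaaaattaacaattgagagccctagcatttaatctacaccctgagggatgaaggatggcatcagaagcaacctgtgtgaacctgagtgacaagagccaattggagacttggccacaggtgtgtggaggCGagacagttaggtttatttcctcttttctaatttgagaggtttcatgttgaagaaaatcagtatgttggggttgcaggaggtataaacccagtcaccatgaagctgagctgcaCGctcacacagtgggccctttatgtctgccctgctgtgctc
The only CpG of this part of the Cd3d promoter was methylated in 45 of 52 calls in B cells and 0 of 65 in T cells. At the 7 CpGs shown for Cd3e, pooled B cell levels ran from 59.5 to 92.6%, and no CpG had a methylated call in T cells among its 78 to 97 calls. The lowest B cell level there belonged to the CpG at -34 relative to the TSS. Fcrla showed the reverse pattern. Its CpG at -55 relative to the TSS stood at 62.7% in T cells and that at 59 stood at 82.9%, against 1.72 and 0% in B cells. Levels at single CpGs rest on 47 to 98 calls summed over 8 libraries.

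Promoters of B and T cells were mostly alike. The median difference (B minus T) over all kept promoters was 0.275 percentage points, 91.1% of them lay within 5 points, and 64.6% were at or under 20% in both cell types. A promoter was called different at an adjusted p under 0.05 in a quasi-binomial logistic model with cell type, sex and assay (Benjamini-Hochberg adjustment over all 19074) together with a difference of at least 20 points between the mean levels. By this rule 268 promoters (1.41%) differed, of which 156 (0.818%) had the higher level in B cells and 112 (0.587%) had it in T cells. The size limit decided these calls, since 1554 promoters passed the p alone and 1 promoter past 20 points failed it. The smallest called difference was 20.02 points at Tlr6, and the largest that failed only the size limit was -19.9 points at P2ry14. At 244 of the 268 no B cell library fell within the range of the T cell libraries, as was the case at 3.14% of all kept promoters. The median standard deviation over 8 libraries at called promoters was 5.68 points for B cells, close to the 5.92 points for T cells, against a median difference of 30.2 points in size.

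**Figure D1:**
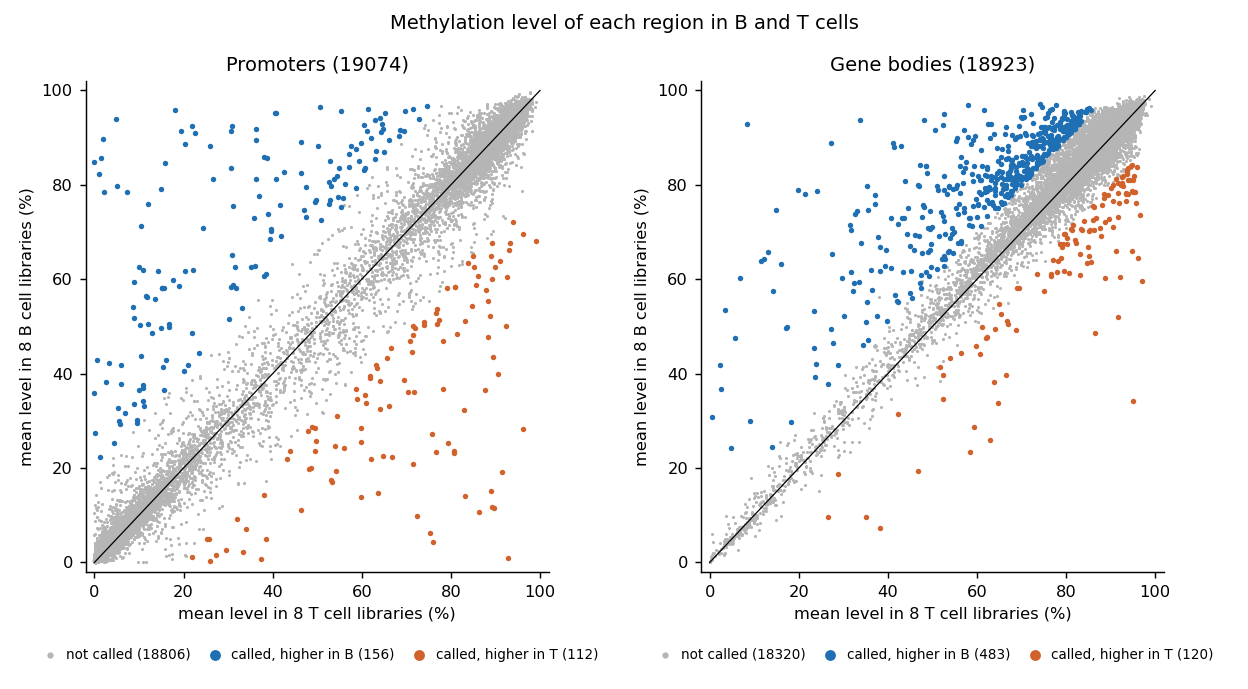
Mean methylation level over 8 T cell libraries (x axis, %) and 8 B cell libraries (y axis, %) of each kept promoter (left) and gene body (right), with called regions in colour and a line where the levels are equal. Most of the 19074 promoters sit near the line at its ends, and 483 of the 603 called gene bodies lie above it.

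Called promoters were poor in CpGs, with a median of 12 CpGs against 47 over all. Of 9478 CpG-rich promoters (observed to expected CpG ratio of at least 0.6 and GC content of at least 50%), 2 were called, or 0.0211%, and 98.4% were at or under 20% in both cell types. Of the 5098 CpG-poor promoters (ratio under 0.3) 207 were called, or 4.06%, and of the 4498 between, 59, or 1.31%. The 2 CpG-rich promoters, named here because they were so few, belonged to Scx, which encodes the tendon transcription factor scleraxis (36.2% ± 3.49 for B and 70.4% ± 3.90 for T cells, SD, n = 8), and Pfn3, which encodes a testis profilin (51.4% ± 5.22 and 77.4% ± 3.72). A complete switch was rare: 8 promoters were at 80% or more in B cells and at 20% or less in T cells, and 7 the other way round. The first included Cd3d, Cd3e, Cd3g, Themis, Zap70, Cxcr6 and Hdac7, and the second Ms4a1, Fcrla, Igll1, Fam129c, Flrt1 and Nup160. Flrt1 encodes a neuronal adhesion protein and Nup160 a subunit of the nuclear pore.

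Of promoters higher in B cells, those of the CD3 genes Cd3d and Cd3e had the largest differences. The CD3 chains carry the signal of the T cell receptor across the membrane. At the Cd3d promoter (chr9:44981286-44982286, 11 CpGs) B cell libraries ran from 92.2 to 96.7% (median 93.7%) and T cell libraries from 0.775 to 8.70% (median 4.32%). At Cd3e (19 CpGs) the ranges were 85.2 to 92.6% and 0.541 to 2.47%, and at Cd3g (10 CpGs) 78.5 to 93.4% and 0 to 4.76%. The differences were 89.3, 87.8 and 84.2 points, with adjusted p = 2.67e-10, 1.66e-11 and 1.37e-08 in the quasi-binomial model. These are consecutive genes on chromosome 9. Cd247, which encodes the zeta chain, lies on another chromosome (chr1:165788181-165789181) and showed the same picture, with 67.2 to 83.6% in B cells and 0 to 4.47% in T cells (difference 76.2 points, adjusted p = 6.89e-09).

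Other genes of T cells followed. Themis, which tunes receptor signals during selection in the thymus, had no methylated call in any T cell library over 6 CpGs and stood at 75.8 to 93.3% in B cells (difference 84.8 points, adjusted p = 4.88e-09, quasi-binomial model). The chemokine receptor gene Cxcr6 ran from 92.0 to 100% in B cells, against 6.56 to 30.3% in T cells. Slfn1, of the Schlafen family, had 67.6 to 89.3% and 1.83 to 12.2%. Fasl, which encodes a death ligand of activated T cells and killer cells, had 71.7 to 85.2% and 3.27 to 12%. At Hdac7, a histone deacetylase gene, the window around the gene start had 86.6 to 96.9% and 12.8 to 29.0%. The 10 promoters with the largest differences in this direction were taken from those with separate ranges, and the smallest of the 10 differences was 71 points, at Fasl.

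**Figure D2:**
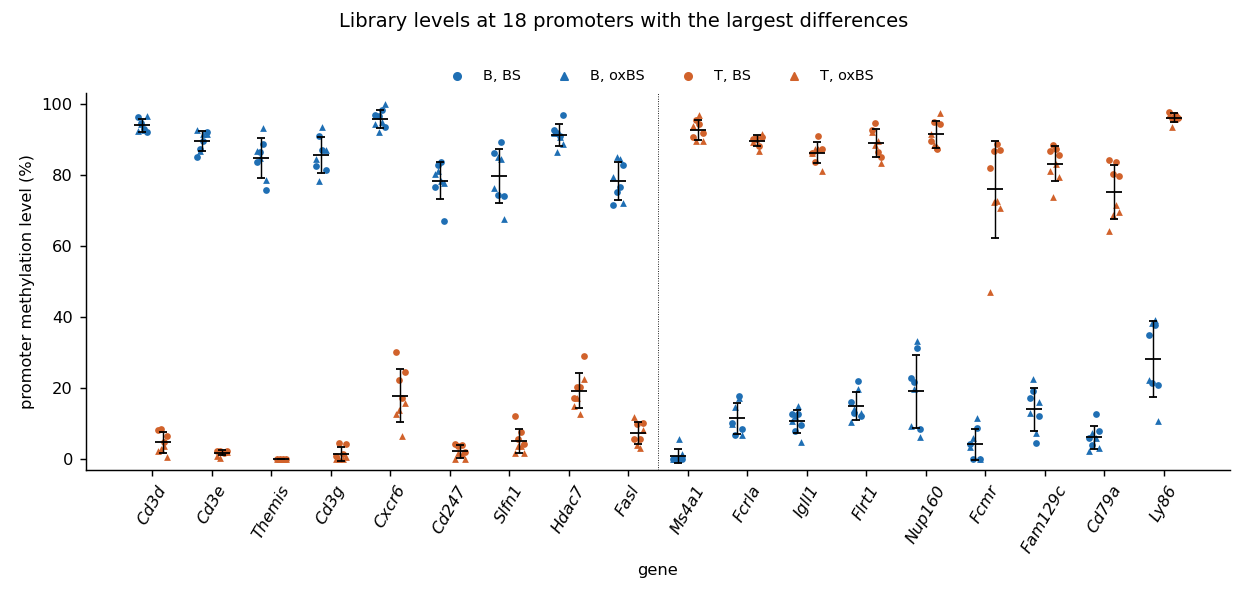
Promoter methylation level (y axis, %) in each library for 9 of the 10 promoters with the largest differences in each direction (x axis), by cell type (colour) and assay (circles BS, triangles oxBS), with mean and SD over 8 libraries. Points of the cell types do not overlap at the 18, which were chosen for this, and the point farthest from its group is a T cell oxBS library at Fcmr, at 47.2%.

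Promoters higher in T cells included several genes of B cells named by the rule of largest differences. Ms4a1 encodes CD20, and its promoter (8 CpGs) was at 0 to 5.66% in B cell libraries (median 0%) and 89.5 to 97.1% in T cell libraries (median 92.9%). This was the largest difference of all promoters, at -91.9 points (adjusted p = 1.40e-08, quasi-binomial model). The promoter of Fcrla, an Fc receptor-like gene of B cells, had 6.76 to 17.9% and 86.8 to 91.5% over its whole window. Cd79a, which encodes the alpha signalling chain of the B cell receptor, had 2.45 to 12.8% and 64.2 to 84.2% over 22 CpGs, and its T cell levels were lower after oxidation (mean 68.5%) than before it (81.9%). Igll1, which encodes part of the surrogate light chain of the pre-B cell receptor, had 5.00 to 15.0% and 81.1 to 90.9%. Fcmr, the gene of the receptor for IgM, had 0 to 11.6% and 47.2 to 88.6%, the widest spread among T cell libraries at the 18 promoters plotted. These T cell libraries did not overlap between assays, with 82.1 to 88.6% in BS and 47.2 to 72.8% in oxBS libraries. The others were Flrt1 (difference -73.9 points), Nup160 (-72.3 points), Fam129c (-69.2 points) and Ly86, whose protein binds the receptor CD180 on B cells (-67.9 points).

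Lists of genes known from each cell type were then read as a whole, beside the 1.41% of promoters and 3.19% of gene bodies called over all genes. Of 18 B cell identity genes, 11 promoters were higher in T cells, none was higher in B cells and 7 were not called, with a median difference of -24.8 points. Of 19 CD4 T cell identity genes, 11 promoters were higher in B cells, none was higher in T cells and 8 were not called, with a median difference of 50.6 points. These lists were put together with results from these libraries known, and no test was run on a list. The 7 uncalled B cell promoters included the lineage transcription factors Pax5 (4.14% ± 2.0 in B cells and 20.5% ± 2.36 in T cells, n = 8) and Ebf1 (0.0523% ± 0.148 and 2.06% ± 1.20), with libraries that did not overlap at either gene. Bank1 (4.05 and 22.3%), Blk (0.181 and 9.70%) and Cr2 (5.42 and 9.65%) also had levels at or under 22.3% in both cell types. The uncalled T cell promoters Tcf7, Lef1, Bcl11b and Gata3, of transcription factors that set T cell fate, were between 0.0607 and 3.68% in both cell types. At Tcf7 the window at the principal start, 443 bp away, had 16.4 and 0.025%.

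Other called members of the B cell list were Fcer2a, which encodes CD23 (23.6% ± 8.69 and 80.6% ± 3.28), Spib, an ETS transcription factor gene (23.5% ± 12.3 and 76.7% ± 6.52), Tnfrsf13b, which encodes TACI (50.03% ± 9.18 and 92.4% ± 1.78), Cd79b (2.25% ± 2.82 and 33.3% ± 6.59), Pou2af1, a co-activator gene (1.53% ± 1.24 and 27.3% ± 7.54), the adaptor gene Blnk (14.2% ± 5.93 and 38.0% ± 5.61) and Cd22 (28.4% ± 9.04 and 49.6% ± 4.86), each as B and then T cells (SD, n = 8). Of the T cell list, Zap70, the kinase gene of the receptor, stood at 84.6% ± 4.46 in B cells and 15.9% ± 4.79 in T cells, and the adaptor gene Trat1 at 79.1% ± 4.67 and 14.8% ± 3.88. The co-receptor gene Cd4 had B cell libraries between 60.1 and 82.5% and T cell libraries between 5.85 and 18.1% (difference 60.8 points, adjusted p = 4.31e-07). Cd6 stood at 56.6% ± 3.63 and 11.7% ± 5.92. Called B cell genes thus ranged from nearly full to partial methylation in T cells, and 4 of the 11 (Cd79b, Pou2af1, Blnk and Cd22) had a mean under 50% there. At Cd22 the T cell libraries ran from 43.0 to 57.3% at the annotated gene start, and their mean at the principal start was 76.2%. In such bulk libraries, a share of cells with a methylated promoter and partial methylation in every cell cannot be told apart.

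**Figure D3:**
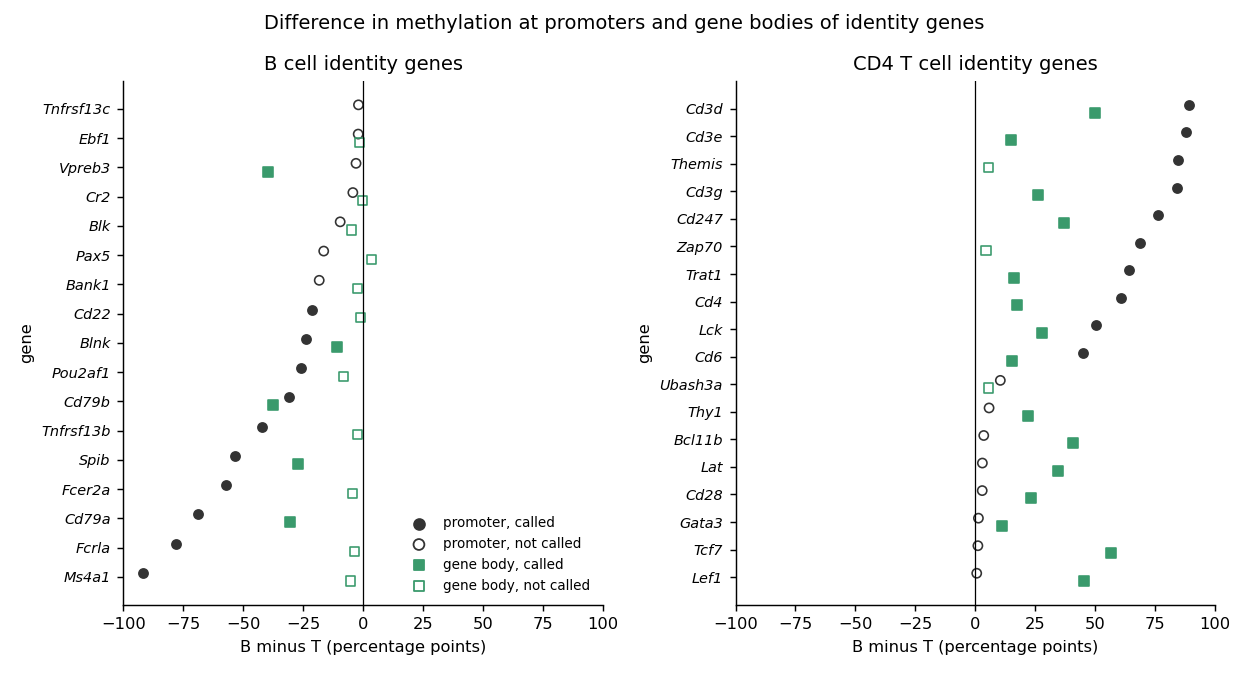
Difference in mean methylation level, B minus T in percentage points (x axis), at the promoter (circles) and gene body (squares) of 17 of 18 B cell identity genes (left) and 18 of 19 CD4 T cell identity genes (right), filled where called. Promoter differences run from -91.9 points at Ms4a1 to 89.3 points at Cd3d, and gene bodies were called at 5 of the 17 measured in the whole B cell list and 16 of 19 in the whole T cell list.

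Genes of other lymphocytes were included among the promoters higher in B cells. Of 4 genes of CD8 T cells both co-receptor genes were called, and the regulator genes Runx3 and Eomes were not. Cd8b1 ran from 84.1 to 91.2% in B cells and 5.31 to 31.5% in T cells, and Cd8a from 79.5 to 88.4% and 35.3 to 54.4%. Of 10 genes of NK and cytotoxic cells 3 were called, Fasl, Gzma (49.9% ± 9.22 and 16.7% ± 2.06) and Nkg7 (41.5% ± 2.57 and 15.3% ± 4.72), while Prf1, which encodes perforin, had 38.2 and 29.9%. Of 13 T helper cytokine and regulator genes, Ifng, which encodes interferon gamma, was called with 85.0% ± 3.84 and 52.9% ± 4.0. Il2, which encodes a T cell growth factor, was also called, with 72.6% ± 6.85 and 50.8% ± 11 and overlapping libraries. The count called in this list was 1 without T cell library 8. Il4, Il5 and Il17a stood between 88.3 and 94.7% in both cell types. Among 13 costimulation and cytokine receptor genes 5 were higher in B cells, with Tnfrsf4, which encodes OX40, at 92.4% ± 2.77 and 30.9% ± 10.4. The others were Il2rb, Cd27, Icos and Il2ra, with differences of 34.1, 27.3, 26.4 and 26.1 points, and libraries overlapped at Icos.

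Antigen presentation genes went the other way. MHC class II molecules present peptides on B cells, and 4 of 10 of their genes were called, each higher in T cells. Cd74, which encodes the invariant chain, had B cell libraries between 11.9 and 35.9% and T cell libraries between 62.3 and 85.7% (difference -54.0 points, adjusted p = 2.17e-05, quasi-binomial model). H2-Eb1 differed by -26.3 points over 7 B cell libraries with enough calls, H2-DMb1 by -25.5 points and H2-Aa by -24.0 points, with overlapping libraries at the last pair. Ciita, which encodes the co-activator of these genes, was methylated in both cell types at its annotated start, at 86.0 and 89.7%. In B cell receptor signalling 1 of 16 promoters was called, Dok3, which encodes an adaptor that restrains the receptor (14.8% ± 4.45 and 63.8% ± 4.46). In T cell receptor signalling 1 of 14 was called, the Tec kinase gene Txk (48.5% ± 7.67 and 12.8% ± 4.76), and 2 without B cell library 12. No promoter was called among 11 homing receptor genes, 11 housekeeping genes or the controls of other tissues: 14 myeloid, 7 erythroid and 13 other tissue genes. The levels of the myeloid genes Csf1r (90.2 and 95%) and Ngp (95.2 and 96.1%) and the liver gene Alb (94.0 and 95.4%) were high in both cell types. Many other members of their lists were lower. Only 4 of the 14 myeloid promoters reached 80% for each cell type, and the list medians were 61.0% (B) and 53.7% (T). A level of 20% or less was found at 5 myeloid promoters for B cells, against 3 for T cells. Of the 13 other tissue promoters, 7 reached 80% for B cells, against 6 for T cells.

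The annotated gene start was not always the start of the principal transcript. At 58 of the 268 called promoters, and 2316 of all kept, these lay more than 500 bp apart. At Vpreb3, a partner of the pre-B cell receptor, the window at the gene start had 57.0% in B cells, against 59.9% in T cells, and the window at the principal start 5243 bp away had 11.7% ± 4.83 and 88.1% ± 2.80, a difference of -76.4 points (adjusted p = 8.90e-09, quasi-binomial model). The difference at Cd22 grew from -21.2 to -62.5 points in the same way. Hdac7 went the other way, with 0.545 and 0.302% around its principal start, 12735 bp from the window that differed. At Lck, the Src family kinase gene of T cells, the gene start had 59.4% ± 10.3 and 8.78% ± 5.79, and the principal start 15250 bp away had 17.1% ± 6.20 and 1.79% ± 0.904. Cd28 had 93.0 and 90.1% at the gene start and 8.25 and 0% at the principal start. At Txk the principal start 16175 bp away had 80.7 and 69.1%, a difference of 11.6 points that is under the limit for a call, and at Dok3 the difference was -21.3 points at the principal start. The differences at Lck and Hdac7 were under the limit there too. Which of these starts was in use was not tested, as no expression data were analysed here.

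Called gene bodies were mostly higher in B cells. With a limit of 10 points, 603 of 18923 gene bodies were called (3.19%), of which 483 (2.55%) were higher in B cells, while 120 (0.634%) were higher in T cells. This limit differs from that for promoters. At 10 points for both, 610 promoters and 603 gene bodies were called, and at 20 points 268 and 168. The libraries did not overlap at 519 of the 603, and did not at 12.9% of all kept gene bodies. Of the 603, 124 shared CpGs with another kept body, as did 2940 of all 18923, and 479 were called among bodies sharing none. Bodies under 5 kb made up 187 of the 603 and 3631 of all kept. The median difference over all gene bodies was 0.686 points, and with this median taken off the count was 433 higher in B cells, with 137 higher in T cells. Averaged over the 18778 gene bodies measured in all libraries, B cells were at 84.9% ± 0.348 (84.4 to 85.3%) and T cells at 83.7% ± 0.983 (82.7 to 84.7%, SD, n = 8), a difference of 1.20 points (two-sided exact permutation test, p = 0.00575, adjusted over promoters and bodies p = 0.0115). The libraries overlapped in part. The difference was 0.225 points in BS libraries alone and 2.18 points in oxBS libraries alone (exact permutation test, p = 0.314 and 0.0286). For promoters the means were 26.4% ± 0.367 and 26% ± 0.392 (exact permutation test, p = 0.0968 and adjusted p = 0.0968), with overlapping libraries. The promoter difference was -0.157 points in BS libraries alone and 0.833 points in oxBS libraries alone (exact permutation test, p = 0.314 and 0.0286).

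Among bodies higher in B cells were those of transcription factors that set T cell fate. Tcf7 encodes TCF1, and its body (chr11:52252371-52281014, 369 CpGs) ran from 76.0 to 79.4% in B cell libraries and from 14 to 29.3% in T cell libraries, with medians of 78.2 and 21.2%. The difference of 56.6 points (adjusted p = 2.87e-08, quasi-binomial model) covered the whole body: in each of its 15 tiles of 2 kb B cells were at least 20 points above T cells, and in the tile next to the 5′ end the levels were 95.2 and 0.255% over 5 CpGs. Lef1 encodes the partner factor of TCF1 and had 87.1 to 89.8% and 31.5 to 54.5% over 1807 CpGs, with 46 of 56 tiles at least 20 points higher in B cells. Bcl11b, which encodes a factor that commits cells to the T lineage, had 77.3 to 78.7% and 24.8 to 48.3%, with 37 of 46 such tiles. None of these bodies had a tile that was 20 points higher in T cells. In contrast, the Themis body, whose promoter switched completely, had 9 of 99 measured tiles higher in B cells and stood at 89.4% ± 0.219 and 83.9% ± 4.04 over all, which was not called.

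Tcf7 was among the 6 bodies with the largest differences in this direction, and the other 5 follow. Cd2, the gene of an adhesion receptor, had 71.5 to 78.7% in B cells and 8.37 to 21.6% in T cells (difference 59.8 points), and Cd27, which encodes a costimulatory receptor, had 76.3 to 83.5% and 10.5 to 30.2% (59.1 points). Btg2, an antiproliferative gene, had 82.1 to 96.3% and 17.7 to 38.8% (61.7 points), and Zfp281, which encodes a zinc finger factor, had 90.1 to 95.3% and 19.3 to 49.7% (60.1 points). The largest difference, 84.5 points at the RING finger gene Rnf224, rested on 4 CpGs in 0.312 kb with a median of 42 calls. Among listed genes, 5 of 11 homing receptor bodies were higher in B cells although none of their promoters was called. These included S1pr1, the receptor by which lymphocytes leave lymph nodes (64.4% ± 6.98 and 12.2% ± 6.12), Ccr7, which guides them in (63.2% ± 2.21 and 16.0% ± 9.93), Klf2, which encodes a regulator of both (47.6% ± 14.7 and 5.78% ± 6.04), and the gut homing receptor gene Ccr9 (75.8% ± 1.24 and 60.2% ± 3.68).

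In T cell receptor signalling 6 of 14 bodies were higher in B cells: Grap2, Prkcq, Rasgrp1, Fyb, Lcp2 and Plcg1, adaptors and enzymes of the pathway, with differences from 14.7 to 24.1 points. Of the costimulation and cytokine receptor list 5 of 13 were higher in B cells, Cd27, Il6ra, Il7r, Icos and Il4ra. Of 11 housekeeping gene bodies 5 were higher in B cells, with Actb, the beta-actin gene, at 26.6 to 47.6% in B cell libraries and 0 to 4.71% in T cell libraries over 36 CpGs, and B2m, Ppia, Ywhaz and Tubb5 with differences from 10.6 to 18.1 points and overlapping libraries. The other lists had 16 of 19 CD4 T cell identity bodies higher in B cells and, in the opposite direction, 5 of 17 B cell identity bodies (Cd79a, Cd79b, Spib, Vpreb3 and Blnk) and 1 of 10 MHC class II bodies, H2-DMb2, or 2 without B cell library 1. Of the CD8 T cell list 2 of 4 bodies (Cd8a and Cd8b1), of the T helper list 2 of 12, among them Il21, and Klf1 of the 6 erythroid genes were higher in B cells. None of 9 NK and cytotoxic, 16 B cell receptor signalling, 11 myeloid and 14 other tissue bodies was called, except that 1 of the signalling list was called without T cell library 5, 7, 13 or 15 and 1 myeloid body without B cell library 1.

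Of the gene bodies higher in T cells, Pafah1b3, which encodes a subunit of a platelet-activating factor hydrolase, had the largest difference: 22.9 to 50.9% in B cells and 89.9 to 98.2% in T cells over 13 CpGs (-60.7 points, adjusted p = 2.24e-07, quasi-binomial model). Vpreb3 had 42.7 to 59.9% and 88.8 to 94.0%, and this body contains the principal start described above. The Cd79b body had 34.0 to 78.5% in B cells, the widest spread of those named, and 94.7 to 99.2% in T cells. Here the 2 sets of B cell libraries described above stood apart, at 70.1 to 78.5% (libraries 1, 2, 9 and 10) and 34.0 to 51.6% (3, 4, 11 and 12), each below every T cell library. Iscu, whose protein is a scaffold for iron-sulphur clusters, had 21.5 to 29.8% and 58.5 to 67.3%. Tmem151b had 18.4 to 29.3% and 56.8 to 61.0%, and Gm9747 had 33.9 to 63.6% and 83.6 to 91.7%. The last pair overlapped the bodies of other genes, Tcte1 and Irs1. The long lineage genes Pax5 and Ebf1 held local differences that the whole body did not show. At Pax5 6 of 92 tiles were at least 20 points higher in T cells and 2 higher in B cells, at Ebf1 12 and 4 of 194, and the bodies differed by 3.51 and -1.31 points.

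Most called promoters had no called body. Among 17709 genes with both regions measured, 239 promoters and 595 bodies were called, and 46 genes had both. This is 19.2% of the called promoters and 7.73% of the called bodies. Both shares were above those over all kept regions, where 3.19% of bodies and 1.41% of promoters were called. At 42 of the 46 the sign was the same, as it was at 10806 of all 17709, with large joint differences at Cd3d (body 53.6% ± 3.33 and 3.53% ± 2.34), Cd247 (80.8% ± 0.780 and 43.8% ± 7.74) and Ccr8, a chemokine receptor gene (promoter 91.0% ± 2.64 and 22.5% ± 8.68, body 95% ± 1.47 and 52.6% ± 13.3). At 4 genes the signs were opposite. Ifi47, an interferon-induced GTPase gene, had a promoter at 4.89% ± 2.74 in B cells and 38.5% ± 10.1 in T cells and a body at 59.5% ± 3.17 and 33.6% ± 6.97. Its body overlapped the gene Olfr56. The interferon-induced gene Ifit3 differed by -20.6 points at its promoter, over 4 CpGs with 6 B and 7 T cell libraries and an overlap, and by 13.8 points in its body. The chemokine receptor gene Ccr2 had 25.9 and -14.1 points, and the lipocalin gene Lcn6 -36.5 and 10.2 points. Of the 475 genes with a body higher in B cells, 369 had promoters at or under 20% in both cell types, as did 11876 of all 17709 genes.

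Levels around the TSS showed how far each kind of difference reached. The bins from 500 bp before to 500 bp after the TSS chose the called promoters, and those beyond did not. For the 156 promoters higher in B cells, pooled levels in the bin starting at the TSS were 65.5% in B cells, against 27.9% in T cells. At 1 kb before the TSS they were 75.0 and 63.0%, and 1 kb after it 60.8 and 42.1%, so that the difference extended farther into the gene than upstream of it. For the 112 promoters higher in T cells the levels were 29.4 and 65.6% at the TSS, 67.9 and 78.3% at 1 kb before it and 52.3 and 62.7% at 1 kb after it. Genes with a called body had low levels at the TSS in both cell types, at 4.27 and 2.78% for bodies higher in B cells. At 1 kb after the TSS, outside the body region, B cells were already at 20.5% and T cells at 13%, and at 2 kb, where it begins, at 54.2 and 34.9%, against 67.8 and 65.3% over all kept promoters.

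**Figure D4:**
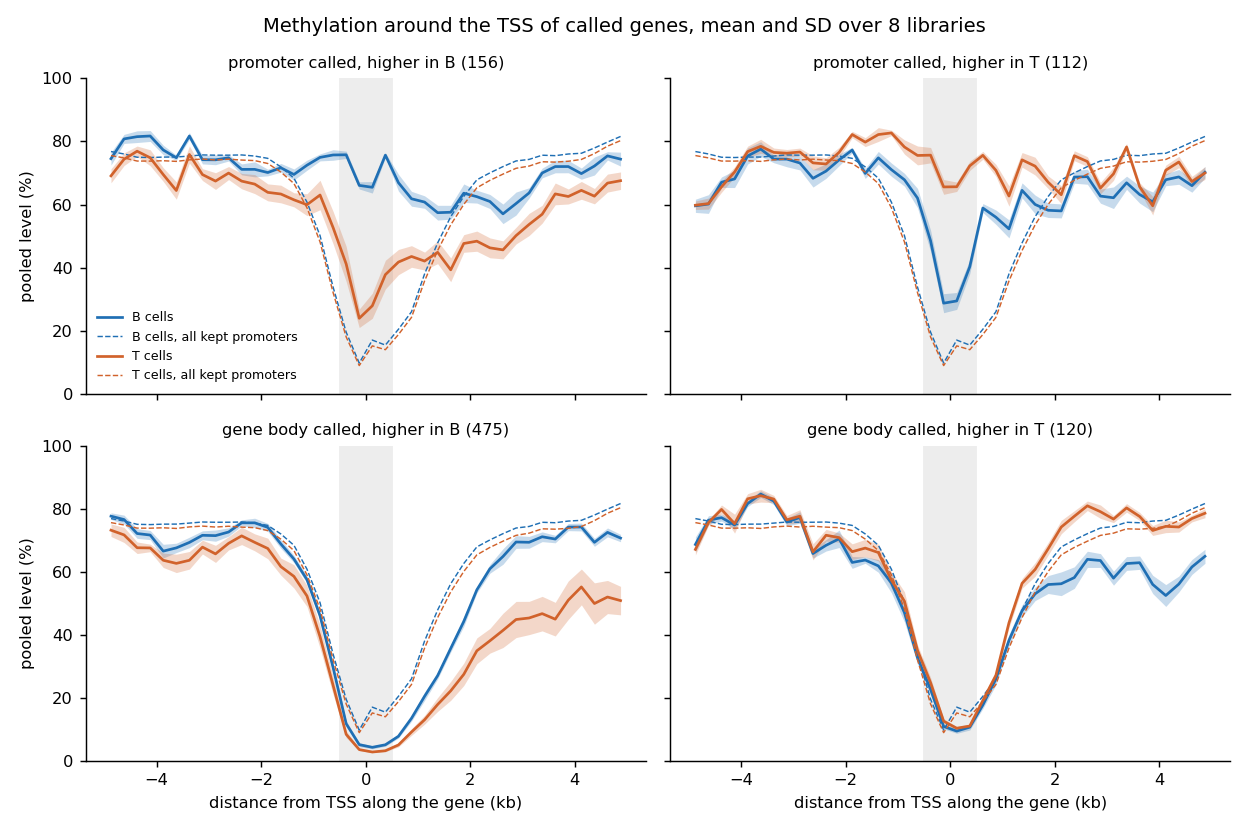
Pooled methylation level (y axis, %) in bins of 250 bp by distance from the TSS along the gene (x axis, kb) for genes with a called promoter (top) or body (bottom), higher in B (left) or in T (right), as mean and SD over 8 libraries (solid, shaded) beside all kept promoters (dashed). The grey band marks the promoter window, and the T cell line of bodies higher in B cells is at 34.9% where the body begins, below the 54.2% of B cells.

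The difference between cell types along gene bodies was not the same in BS and oxBS libraries. A term for cell type by assay passed an adjusted p under 0.05 at 3810 gene bodies (20.1%), and at 3806 of these B minus T was larger after oxidation. This count has no size limit, and at 312 of the 3810 B minus T changed by at least 10 points between assays. The term passed at 0 promoters (0.00%), with 1517 (7.95%) at an unadjusted p under 0.05 in the same quasi-binomial model. Promoters had a median of 404.5 calls per library, against 1592.5 for gene bodies. What size of difference the term could detect was not tested, so the 0 does not show that promoters lack a difference between assays. With the dispersion moderated across regions the term passed at 4647 gene bodies and 0 promoters. The median difference over gene bodies was 0.117 points in BS and 1.25 points in oxBS libraries. Mean levels over all gene bodies were 84.9% in BS and 85.0% in oxBS libraries of B cells, and 84.6% and 82.8% in those of T cells, so that the T cell libraries fell into 2 ranges by assay. With BS libraries alone 364 bodies were called, 226 higher in B cells, with 138 higher in T cells, and with oxBS libraries alone 953, 860 and 93. In 4 against 4 libraries of 1 sex, the term passed at 0 bodies in females (2413 at an unadjusted p under 0.05) and at 0 in males (3194).

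Within T cells the level in BS minus that in oxBS libraries is given for the called bodies as a description, since both levels entered the mean that chose them and a low oxBS level made a call more likely. Its median over the 483 was 9.71 points in T cells, against 1.27 points over all kept bodies, and it was above 0 at 475 of the 483. In females the median was 9.94 points and in males 9.5 points. In B cells the same 483 bodies had a median of -0.0694 points. For the 120 bodies higher in T cells the medians were 1.65 points in T cells and -0.545 points in B cells. At promoters higher in B cells the median was 6.97 points in T cells and -0.160 points in B cells, although the term for the difference passed at none. In B cells of males, oxBS libraries were slightly above BS libraries over all bodies (85.1 and 84.7%), although oxidation by itself lowers a level, and the reason was not tested.

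Among the named bodies the level in T cells fell most from BS to oxBS libraries at B2m, from 68.0 to 43.4%, where B and T cell libraries overlapped. Zfp281 had 44.1% in BS and 23.4% in oxBS libraries. Tcf7 had 28.5 and 14.5%, Lef1 53.2 and 32.7%, Bcl11b 47.1 and 27.3%, and Ccr7 25.3 and 6.74%. At the Cd3e body B minus T was 6.64 points in BS and 23.5 points in oxBS libraries, and at Lat, an adaptor gene, 22.8 and 46.1 points. The smallest p of the term belonged to Fam78a, where B minus T was 29.7 and 47.4 points, and Tnik, a kinase gene, where it was -0.948 and 3.32 points (adjusted p = 6.56e-06 at both, quasi-binomial model). The Fam78a body overlapped that of Nup214, which was also called. Of the bodies higher in T cells, Iscu had T cell means of 63.6 and 62.3% and Cd79b of 97.1 and 96.8%, while at Cd79a they were 65.9% in BS and 52.9% in oxBS libraries.

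**Figure D5:**
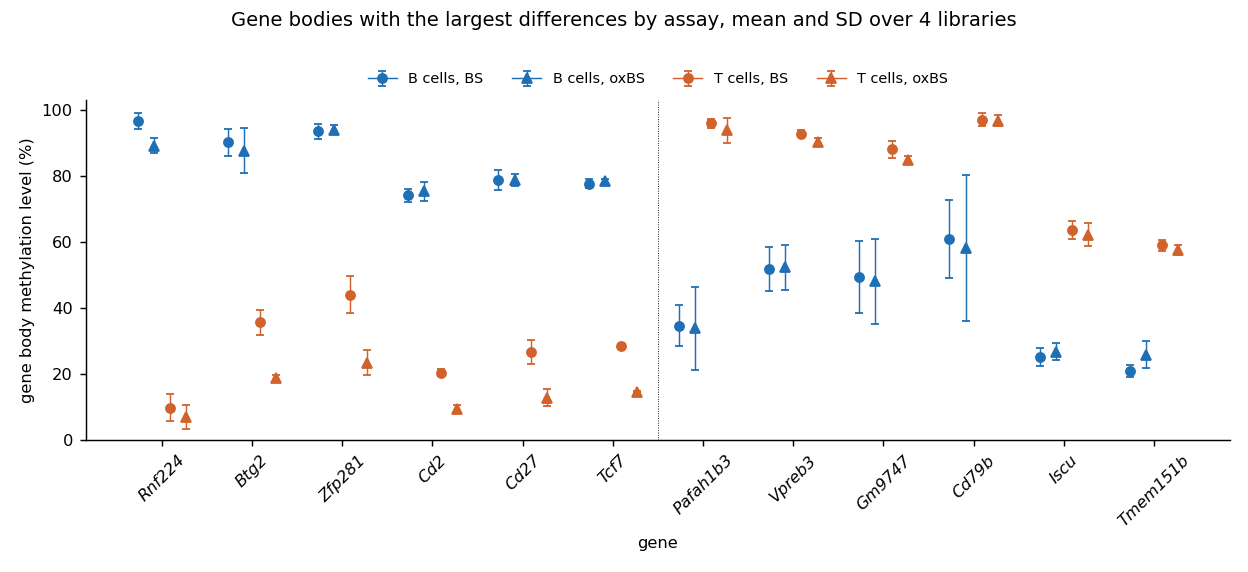
Gene body methylation level (y axis, %) in BS (circles) and oxBS (triangles) libraries of B and T cells, as mean and SD over 4 libraries, at the 6 bodies with the largest differences in each direction (x axis). T cell levels at Zfp281 are 44.1% in BS and 23.4% in oxBS libraries, while those at Rnf224 overlap between assays, as do levels on the right such as those at Iscu.

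The term for cell type by sex passed an adjusted p under 0.05 at 0 promoters (0.00%) and 0 gene bodies (0.00%) in the quasi-binomial model, with 721 and 465 at an unadjusted p under 0.05. It also passed at 0 of each with the dispersion moderated across regions. The median difference over gene bodies was 0.719 points in males and 0.703 points in females. What size of difference this term could detect was not tested. The smallest unadjusted p for sex were at Sfxn1 and Kcne1 among promoters and at Lypd5 and Fbxo17 among bodies, all with an adjusted p of 1, and for assay among promoters at Diexf and Carns1, with an adjusted p of 0.591.

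Some called promoters were neighbours. Among promoters in order along the chromosomes, 16 consecutive pairs were both called, 15 of them in the same direction and 4 with overlapping windows, which share CpGs. The runs included Cd3g, Cd3d and Cd3e, the pair Cd5 and Cd6, Cd8b1 and Cd8a with Smyd1 before them, and on chromosome 17 H2-Aa, H2-Eb1, H2-Eb2, Btnl2 and Btnl1, all higher in T cells. The pair of opposite sign was Ms4a4a (22.1 points) and Ms4a4c (-21.6 points), near Ms4a1. Names in this paragraph that no rule above gave were chosen after their values were seen. Called promoters made up between 0.507% (chromosome 8) and 3.01% (chromosome 19) of those kept on a chromosome.

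Short sequence matches in the promoter windows were counted on both strands. TGTGGTTT, a form of the RUNX motif, was present in 25 of the 156 promoters higher in B cells (16.0%), in 6 of the 112 higher in T cells (5.36%) and in 4.69% of all kept promoters, or 6.49% of those that were not CpG-rich. CTTTGAT, of TCF and LEF factors, was in 16.7, 14.3 and 10.5%, with 13.9% of those not CpG-rich. ATGCAAAT, the octamer bound by OCT factors, was in 4.49, 8.04 and 3.78%, with 4.73% of those not CpG-rich. The ETS-IRF composite motif was in 9.62, 9.82 and 8.62%, with 10.4% of those not CpG-rich, and the EBF1 palindrome in 3.85, 4.46 and 3.70%, with 3.50% of those not CpG-rich. A match describes the letters only and was not tested.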

How the data were processed

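Whole-genome bisulphite sequencing was run on 16 libraries. Per the labels and the study's methods, the authors trimmed reads with Trim Galore 0.6.0, aligned them to mm10 with Bismark 0.20.0, used SAMtools 1.3.1 and deposited, for each CpG with strands combined, the counts of unmethylated and methylated calls. These counts were summed per region (GENCODE vM21). Each region was fitted with a quasi-binomial logistic model (cell type, sex and assay, F test, dispersion of at least 1) in Python 3.11.15 with NumPy 2.4.6 and SciPy 1.17.1, and p-values were adjusted over all regions of a kind. A call also needed a difference of 20 points (promoters) or 10 points (gene bodies). Alternatives included limma 3.58.1 on log2 ratios of calls and an exact permutation test per region. Cell type by sex and cell type by assay were tested as added terms in the same model. On simulated data the promoter model called 50 of 50 promoters changed by 30 points and 0 of 18874 unchanged ones. The gene body model called 44 of 50 bodies changed by 12 points and 0 of 18723 unchanged ones. The simulated libraries were independent draws, without assay differences or shared DNA, and unchanged regions also had to pass the size limit. The counts of 0 therefore do not measure the error rate in the real data. No promoter difference between 20 and 30 points was simulated.

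Named promoters were the 10 with the largest differences in each direction among called ones with separate libraries, and named bodies the 6 by the same rule. To these were added the 4 genes called at both regions with the largest sums and the 4 of opposite sign, the 2 regions with the smallest p of each interaction, called list members and all identity genes. The members and the 14 lists were chosen with earlier results of these data known. Libraries held between 5.83 and 8.07 calls per autosomal CpG. Reads carry no molecular identifiers, so that counts describe calls and not molecules. BS and oxBS libraries may share DNA, which the model treats as independent. Sequences were read from the mm10 reference. X and Y chromosomes were not analysed here. Some items are not reported here.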

Additional observations from a re-analysis of the deposited data

Results flagged for a closer look

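In 109 groups of 8 or fewer libraries at named regions, 7 values stood apart from the rest of their group by Dixon's criterion, which chance alone meets in about 1 of 20 groups. At the Cd247 promoter a B cell library was at 67.2% and the others between 76.6 and 83.6%. At Ms4a1 a B cell library was at 5.66% and the others between 0 and 1.56%. At Fcmr a T cell oxBS library was at 47.2% and the others, of both assays, between 70.7 and 88.6%. At the Ifi47 promoter a T cell library stood at 60.4%, against 27.8 to 41.7%. At the Ifit3 promoter, with 4 CpGs, a B cell library was at 7.41% with all others at 0, and a T cell library at 48.1% with the others between 7.14 and 23.3%. At the Ccr2 body a T cell library was at 86.9%, against 90.0 to 92.0%.

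The difference between cell types itself differed between assays at 3810 gene bodies. The smallest p belonged to Fam78a, where B minus T was 47.4 points in oxBS and 29.7 points in BS libraries, and to Tnik, where it was 3.32 points in oxBS and -0.948 points in BS libraries.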

How the results depend on the processing

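The number of called regions changed with the size limit and with the libraries used, and the genes called also changed with the definition of the region. Called promoters numbered 1554 with no limit, 610 with 10 points and 137 with 30 points, and gene bodies 6968 with no limit, 1815 with 5 points and 168 with 20 points. In libraries of 1 assay or sex, promoters numbered 105 (BS), 131 (oxBS), 65 (male) and 98 (female), and gene bodies 364 (BS) and 953 (oxBS). The mean promoter difference was -0.157 points in BS libraries, the reverse of the 0.338 points over all, 0.833 points in oxBS libraries and 1.46 points with calls pooled over all regions, of which the last pair passed the exact permutation test (p = 0.0286 and 0.00466). Pooling gives more weight to promoters with many calls, which reached 359592 in 1 library at a kept promoter, against a median of 404.5. The cause of the change between these settings was not tested. The mean gene body difference was 2.18 points in oxBS libraries (exact permutation test, p = 0.0286). It was 0.225 points in BS libraries, 1.20 points in males and 1.20 points in females. None of these passed the exact permutation test (p = 0.314, 0.0857 and 0.114, adjusted p = 0.314, 0.171 and 0.229). Within 1 sex, an alternative chosen after seeing the data, the assay term passed at 0 gene bodies in each. Leaving out each library in turn gave 258 to 273 promoters, 557 to 654 gene bodies, 0.242 to 0.407 points for promoters and 1.06 to 1.34 points for gene bodies. limma called 268 promoters and 607 gene bodies. No paired analysis was possible because the library numbers are unique and the groups share none.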
